A study of Macaca mulatta with 9 samples.

Results

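The 10 genes described here mark regulatory T cells or encode receptors that restrain or costimulate T cells. FOXP3 and IKZF2 encode transcription factors of regulatory T cells, IL2RA an interleukin 2 receptor chain and ICOS a costimulatory receptor. CTLA4, PDCD1, LAG3, TIGIT, CD96 and HAVCR2 encode receptors known mainly as inhibitory checkpoints. They were looked up by name, and all 10 were found among the 24371 genes of the deposited table. RNA was measured in unsorted whole blood of 9 rhesus macaques (Macaca mulatta) of WT genotype, 1 library per animal and 3 animals per group. The PBS group received the vehicle, and its animals are described as Old. The FBMSC_EV group was injected with extracellular vesicles (EV), membrane particles released by cells, of a source the labels name only FBMSC, and the ABPC_EV group with EV of antler blastema progenitor cells. Assignment was random, and the labels give no dose, duration of treatment or age.

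FOXP3 is the lineage-defining factor of regulatory T cells, a CD4 subset that suppresses other lymphocytes, and IKZF2 (Helios) is expressed in much of that subset. These cells carry high levels of IL2RA, CTLA4, ICOS and TIGIT, while PDCD1, LAG3, TIGIT and HAVCR2 also appear on activated or exhausted effector T cells and, in part, on NK cells. TIGIT and CD96 compete with the activating receptor CD226 for ligands of the nectin family. In blood such transcripts come from a minority of cells.

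The table gives per-million values, which behave like TPM: reads divided by gene length and set to a fixed total. The 3 globin genes HBB, HBA and HBA1 took 89.7% ± 2.57 of that total in the PBS group, 84.2% ± 3.01 in the FBMSC_EV group and 76.2% ± 5.82 in the ABPC_EV group (mean ± SD of 3 libraries), so the room left for all other genes differed between the groups. The values were therefore also divided by a median-ratio factor per library, taken over 13350 genes above 0 in every library. The factors were 0.330 to 0.767 for PBS, 0.957 to 1.21 for FBMSC_EV and 1.52 to 2.52 for ABPC_EV, and the values after division are called scaled. Whole reads recovered from the table totalled 11.7 M to 14.5 M per library (1 M is 1000000), of which 3.05 M to 8.13 M lay outside 11 erythroid marker genes. In unsorted blood, fewer cells of a type and less RNA per cell cannot be told apart.

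As deposited, 8 of the 10 genes had their lowest group mean under PBS and their highest under ABPC_EV. The exceptions were IL2RA, lowest under FBMSC_EV, and HAVCR2, highest under FBMSC_EV. Most of that difference was shared with the rest of the table: the median gene was 1.41 higher on the log2 scale under ABPC_EV than under PBS. After scaling, no gene of the 10 passed the test in any comparison. CD96 had the largest scaled change against PBS and was the only 1 of the 10 whose ABPC_EV libraries all lay above all PBS libraries, while CTLA4 varied only 1.64-fold from the lowest to the highest of the 9 scaled libraries.

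Levels differed widely between the genes. The mean over 9 libraries, as deposited and per length, was 8.55 for PDCD1, 4.05 for TIGIT, 2.90 for CD96, 2.27 for ICOS, 1.88 for LAG3 and 1.17 for IL2RA. It was below 1 for IKZF2 (0.838), FOXP3 (0.455), CTLA4 (0.327) and HAVCR2 (0.317). The order was the same after scaling, except that CTLA4 (0.267) fell behind HAVCR2 (0.286). Neighbours in this order were close relative to their spread over libraries, since each of the 10 genes spanned at least 8.39-fold as deposited. CTLA4 rested on 6 to 28 recovered reads per library, IL2RA on 1 to 45, HAVCR2 on 2 to 44 and FOXP3 on 16 to 96. Counting error alone is wide at such numbers: the exact 95% Poisson interval around the 1 read of IL2RA in PBS replicate 2 is 0.0253 to 5.57, and that around the 2 reads of HAVCR2 in PBS replicate 1 is 0.242 to 7.22. PDCD1, IKZF2 and CD96, with 1060, 1167 and 1457 reads over all libraries, are measured more firmly as a whole. In the PBS libraries, however, PDCD1 had 27 to 70 reads, IKZF2 38 to 41 and CD96 24 to 50.

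**Figure D1:**
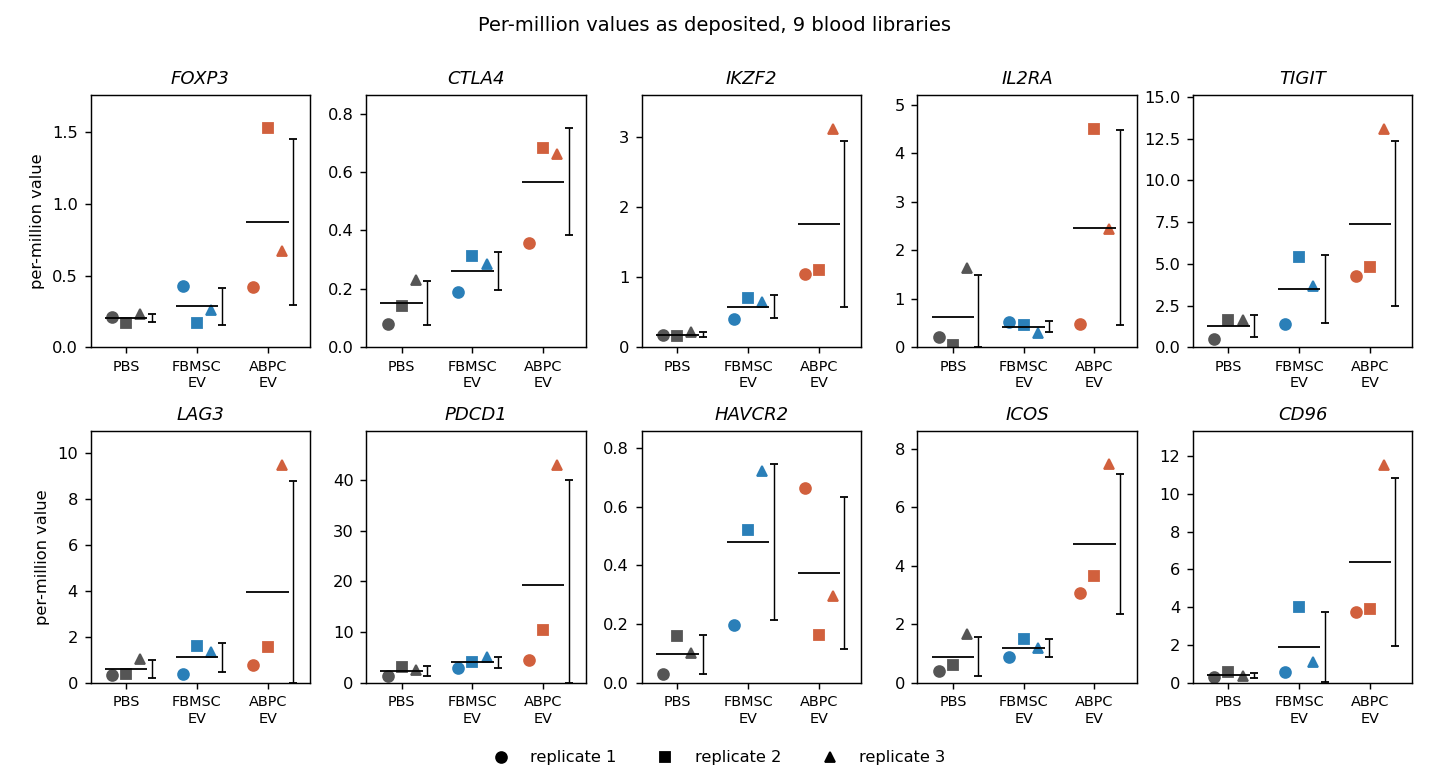
Per-million values as deposited (vertical axis, linear, a separate range for each gene) of the 10 genes in the 3 PBS, 3 FBMSC_EV and 3 ABPC_EV libraries; points are single libraries, lines group means and bars 1 SD, cut at 0. In 6 of the panels the highest point is ABPC_EV replicate 3, and in 7 the lowest is PBS replicate 1.

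FOXP3 was listed at 0.214, 0.171 and 0.229 (per-million value) in PBS replicates 1 to 3, at 0.426, 0.168 and 0.260 under FBMSC_EV and at 0.421, 1.53 and 0.675 under ABPC_EV. Every ABPC_EV library lay above every PBS library, but ABPC_EV replicate 1 was below FBMSC_EV replicate 1. Scaled, FOXP3 was 0.647, 0.364 and 0.299 under PBS, 0.433, 0.139 and 0.271 under FBMSC_EV and 0.277, 0.705 and 0.268 under ABPC_EV. On that scale the 3 groups overlapped, and 1 library of each treated group lay among or above the PBS values.

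IKZF2 encodes Helios, a zinc-finger factor that stabilises the regulatory programme. It was listed at 0.170, 0.156 and 0.216 under PBS, 0.401, 0.699 and 0.641 under FBMSC_EV and 1.04, 1.10 and 3.11 under ABPC_EV. The 3 groups did not overlap as deposited, and ABPC_EV replicate 3 stood far above the others. Scaled values were 0.513, 0.333 and 0.282 under PBS, 0.407, 0.580 and 0.669 under FBMSC_EV and 0.687, 0.509 and 1.24 under ABPC_EV. The order of the group means was kept (0.376 ± 0.122, 0.552 ± 0.133 and 0.811 ± 0.379, SD, n = 3 each), but neighbouring groups overlapped, and ABPC_EV replicate 2 lay just under PBS replicate 1.

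IL2RA, the alpha chain that gives the interleukin 2 receptor its high affinity, was listed at 0.206, 0.0488 and 1.63 under PBS, 0.522, 0.461 and 0.302 under FBMSC_EV and 0.474, 4.49 and 2.43 under ABPC_EV. PBS replicate 3 and ABPC_EV replicates 2 and 3 were high, and the other 6 libraries were low. Scaling left the same 3 libraries on top, with PBS replicate 3 (2.12) and ABPC_EV replicate 2 (2.07) nearly equal and ABPC_EV replicate 3 at 0.966. The high values thus did not follow the groups.

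ICOS, which sustains regulatory and follicular helper T cells, was listed at 0.399, 0.618 and 1.67 under PBS, 0.871, 1.48 and 1.19 under FBMSC_EV and 3.07, 3.65 and 7.47 under ABPC_EV. All ABPC_EV libraries were above all others, and PBS overlapped FBMSC_EV. Scaled, it was 1.21, 1.31 and 2.18 under PBS, 0.884, 1.23 and 1.24 under FBMSC_EV and 2.02, 1.68 and 2.97 under ABPC_EV. ABPC_EV still lay above FBMSC_EV in every library, but PBS replicate 3 lay above 2 of the ABPC_EV libraries.

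CTLA4, which competes with CD28 for CD80 and CD86, was listed at 0.0813, 0.141 and 0.230 under PBS, 0.189, 0.312 and 0.286 under FBMSC_EV and 0.356, 0.682 and 0.663 under ABPC_EV. The ABPC_EV libraries were all above the rest. Scaling removed this order: CTLA4 was then 0.246, 0.300 and 0.300 under PBS, 0.191, 0.258 and 0.298 under FBMSC_EV and 0.234, 0.315 and 0.263 under ABPC_EV. The scaled group means were 0.282 ± 0.0311, 0.249 ± 0.0539 and 0.271 ± 0.0409 (SD, n = 3 each), and the 3 groups overlapped, on at most 28 reads per library.

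PDCD1 encodes PD-1, the receptor for the ligands CD274 and PDCD1LG2. It was listed at 1.27, 3.12 and 2.46 under PBS, 2.92, 4.09 and 5.13 under FBMSC_EV and 4.45, 10.4 and 43.1 under ABPC_EV. Scaled, it was 3.85, 6.64 and 3.20 under PBS, 2.96, 3.39 and 5.35 under FBMSC_EV and 2.93, 4.80 and 17.1 under ABPC_EV. ABPC_EV replicate 3 was the highest library on both scales, while ABPC_EV replicate 1 was the lowest of all 9 once scaled.

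LAG3, a CD4-related receptor for MHC class II, was listed at 0.357, 0.384 and 1.02 under PBS, 0.391, 1.58 and 1.33 under FBMSC_EV and 0.769, 1.57 and 9.48 under ABPC_EV. The scaled values were 1.08, 0.818 and 1.34 under PBS, 0.396, 1.31 and 1.39 under FBMSC_EV and 0.505, 0.726 and 3.76 under ABPC_EV. Again ABPC_EV replicate 3 was the highest on both scales, and after scaling the other ABPC_EV libraries lay below all 3 PBS libraries.

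TIGIT, a receptor for PVR and NECTIN2, was listed at 0.509, 1.64 and 1.64 under PBS, 1.39, 5.41 and 3.67 under FBMSC_EV and 4.29, 4.84 and 13.1 under ABPC_EV. Scaled, it was 1.54, 3.50 and 2.14 under PBS, 1.41, 4.48 and 3.83 under FBMSC_EV and 2.82, 2.23 and 5.20 under ABPC_EV. The scaled groups overlapped throughout, and replicate 1 was the lowest library in both the PBS and the FBMSC_EV group.

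CD96, which shares the ligand PVR with TIGIT and is found on T and NK cells, was listed at 0.295, 0.558 and 0.343 under PBS, 0.552, 4.01 and 1.10 under FBMSC_EV and 3.77, 3.91 and 11.6 under ABPC_EV. Scaled, it was 0.893, 1.19 and 0.448 under PBS, 0.561, 3.32 and 1.15 under FBMSC_EV and 2.48, 1.80 and 4.59 under ABPC_EV. On both scales every ABPC_EV library lay above every PBS library, and FBMSC_EV replicate 2 reached the ABPC_EV range.

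HAVCR2 encodes TIM-3, a receptor of exhausted T cells that myeloid and NK cells also carry. It was listed at 0.0281, 0.160 and 0.102 under PBS, 0.195, 0.520 and 0.723 under FBMSC_EV and 0.664, 0.163 and 0.294 under ABPC_EV. Scaled values were 0.0851, 0.339 and 0.133 under PBS, 0.198, 0.431 and 0.755 under FBMSC_EV and 0.437, 0.0753 and 0.117 under ABPC_EV. FBMSC_EV replicate 3 was the highest on both scales, and all groups overlapped once scaled.

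**Figure D2:**
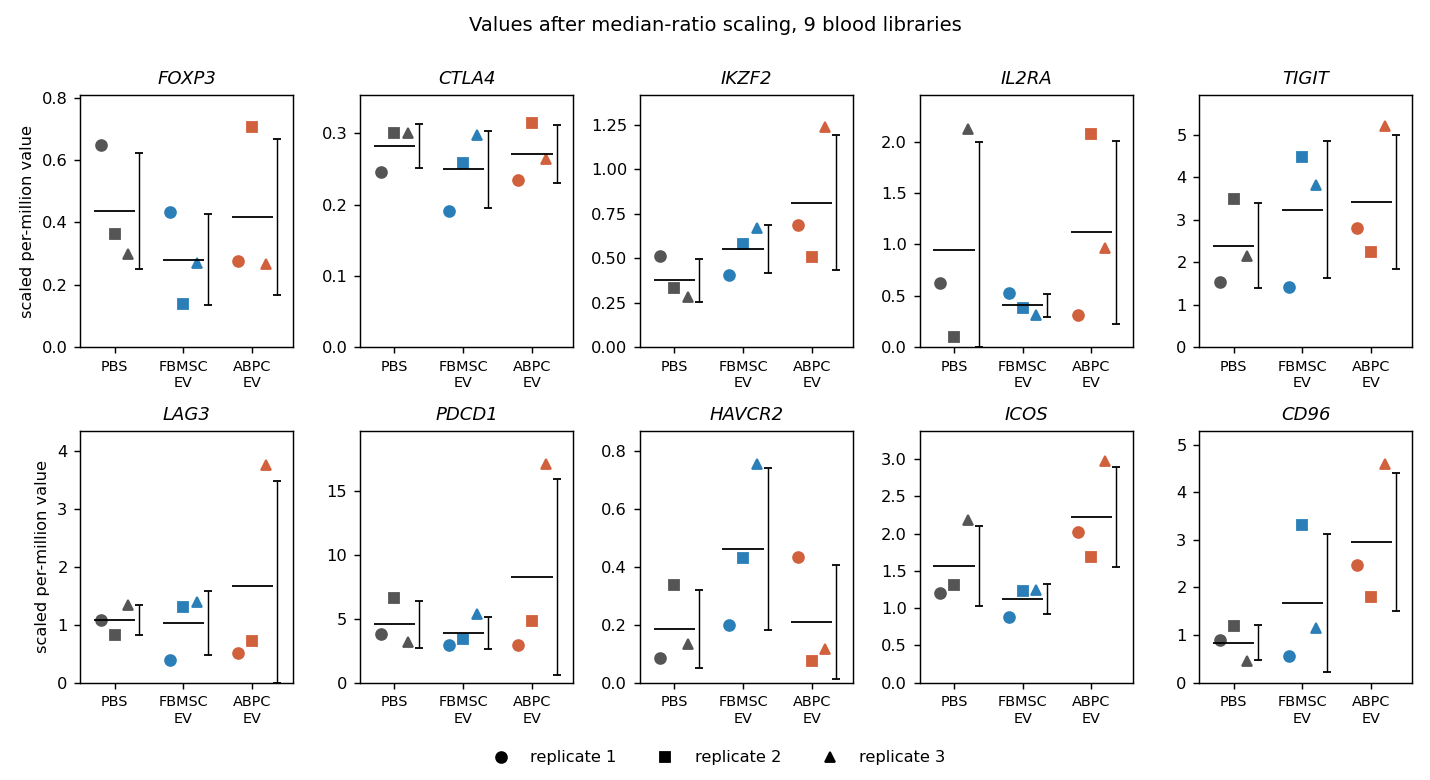
The same 10 genes after median-ratio scaling (vertical axis, scaled per-million value, linear, a separate range for each gene), with single libraries as points, group means as lines and 1 SD as bars cut at 0. The groups overlap in most panels; CD96 is higher in the 3 ABPC_EV libraries than in the 3 PBS libraries, and CTLA4 stays between 0.191 and 0.315.

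Tests used limma on log2(value + 1) with all 9 libraries, over genes that reached 1 in no fewer than 3 libraries, and Benjamini-Hochberg adjustment over all genes tested (threshold 0.05). As deposited, 10596 genes were tested, among them 7 of the 10; FOXP3, CTLA4 and HAVCR2 were under the minimum. IKZF2 reached 1 only in the ABPC_EV libraries, so its entry into the test depended on the group in which it was high. Scaled, 9812 genes were tested, among them TIGIT, LAG3, PDCD1, ICOS and CD96. Fold changes are on the log2(value + 1) scale and understate changes of low values.

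The first comparison asks how blood of animals given ABPC_EV differed from that of vehicle animals. As deposited, the 7 tested genes were all called higher, 1 of them (IKZF2) after entering through its ABPC_EV values, and their median change was 1.58. This count is near the background, since 90.9% of all tested genes were called higher and the all-gene median was 1.41. In 5 of the 7 every ABPC_EV library lay above every PBS library, against 85.4% of all genes. For IKZF2, 1 of these 5, that was fixed by its entry into the test. IL2RA and LAG3 overlapped.

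CD96 rose most, by 2.25 (SE 0.40, limma adjusted p = 0.000417), from 0.399 ± 0.140 to 6.41 ± 4.46 (SD, n = 3 each), and was 172nd from the top of the 10596 changes. PDCD1 rose by 2.14 (SE 0.50, adjusted p = 0.000712), from 2.28 ± 0.936 to 19.3 ± 20.8; without ABPC_EV replicate 3 its change was 1.31 (adjusted p = 0.00596). TIGIT rose by 1.79 and ICOS by 1.58 (limma adjusted p = 0.000625 and 0.000465). These 4 lay above the all-gene median.

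The other 3 lay below that median on the log2(value + 1) scale. The added 1 exceeded their PBS means, which were 0.181 for IKZF2, 0.589 for LAG3 and 0.627 for IL2RA. Their place therefore does not show that they rose less than most genes. IKZF2, which entered the test only through its ABPC_EV values, had a change of 1.14 (limma adjusted p = 0.00121, and 0.0112 among all genes with no minimum level). LAG3 rose by 1.22 (adjusted p = 0.0125), but by 0.45 without ABPC_EV replicate 3, where the call was lost (adjusted p = 0.199). IL2RA rose by 1.02 (adjusted p = 0.0158), with the call lost without PBS replicate 1 (0.87, adjusted p = 0.0754) or PBS replicate 2 (0.77, adjusted p = 0.0610), and a change of 1.54 without ABPC_EV replicate 1. IKZF2 fell under the minimum level without any 1 ABPC_EV library, and IL2RA without PBS replicate 3 or ABPC_EV replicates 2 or 3. The count of called genes was therefore 4 of 5 tested without ABPC_EV replicate 3, where 87.5% of all genes were called higher.

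With no minimum level, 7 of the 10 were called, against 47.9% of 24371 genes called higher. Without PBS replicate 1 it was 3 (CD96, ICOS and IKZF2), against 31% of all genes. With every library kept and no minimum level, FOXP3 had a change of 0.59 (limma adjusted p = 0.0425) and CTLA4 of 0.44 (adjusted p = 0.0148). HAVCR2 had 0.31 in that fit and did not pass (limma adjusted p = 0.168). IL2RA and LAG3 no longer passed in the same fit (limma adjusted p = 0.128 and 0.132). The FOXP3 call ended without any 1 library except ABPC_EV replicate 1 (adjusted p from 0.0516 to 0.109), and its change was 0.36 without ABPC_EV replicate 2. The CTLA4 call ended without PBS replicate 1 (adjusted p = 0.0651) or PBS replicate 2 (0.0518).

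After scaling, 0 of the 5 tested genes were called by limma, as was 0% of all genes, and limma-voom on the recovered reads called none either. At an unadjusted p under 0.05 there were 1019 genes, among them CD96. Its scaled change was 1.06 (95% interval 0.21 to 1.91, adjusted p = 0.353), 64th from the top of 9812, from 0.843 ± 0.373 under PBS to 2.96 ± 1.46 under ABPC_EV (SD, n = 3 each). CD96 was 1 of 5 genes with every ABPC_EV library above every PBS library, against 5.76% of all genes. PDCD1 had 0.47 (95% interval -0.64 to 1.57), TIGIT 0.36, ICOS 0.33 and LAG3 0.16, with a median of 0.36 beside an all-gene median of -0.02. PDCD1 and LAG3 turned to -0.17 and -0.34 without ABPC_EV replicate 3. Scaled changes of the genes under the minimum were -0.03 for FOXP3, -0.01 for CTLA4, 0.38 for IKZF2, 0.17 for IL2RA and 0.02 for HAVCR2; those of FOXP3, CTLA4, IL2RA and HAVCR2 changed sign when some single libraries were left out.

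The second comparison set FBMSC_EV against the same PBS libraries, so the comparisons against PBS share their controls. As deposited, 0 of 7 genes were called by limma, against 0.255% of all genes called higher; 2 of them, TIGIT and CD96, were among the 4637 genes at an unadjusted p under 0.05. TIGIT had a change of 0.92 (limma adjusted p = 0.101), from 1.27 ± 0.656 to 3.49 ± 2.01, and CD96 of 0.86 (adjusted p = 0.106), from 0.399 ± 0.140 to 1.89 ± 1.86 (SD, n = 3 each). Without FBMSC_EV replicate 2 the change of CD96 was 0.37 and that of TIGIT 0.61. PDCD1 had 0.64, IKZF2 0.42, LAG3 0.38, ICOS 0.25 and IL2RA -0.07; the median was 0.42 and the all-gene median 0.70. IKZF2 was the 1 of 7 with every FBMSC_EV library above every PBS library, against 50.9% of all genes. Outside the minimum level, HAVCR2 had 0.42 (adjusted p = 0.238), CTLA4 0.13 and FOXP3 0.09.

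Scaled, 0 of 5 genes were called against PBS, as was 0% of all genes (limma; 472 genes at an unadjusted p under 0.05, none of the 5, and 0 called by limma-voom). CD96 had 0.43, TIGIT 0.28, LAG3 -0.07, PDCD1 -0.16 and ICOS -0.26, with a median of -0.07 beside 0.01 for all genes. In none of the 5 did the FBMSC_EV libraries all lie above the PBS libraries, against 4.69% of all genes. The 95% interval of CD96 was -0.42 to 1.27 and that of PDCD1 -1.27 to 0.94. Without FBMSC_EV replicate 2 the scaled change of CD96 was 0.01 and that of TIGIT 0.05.

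**Figure D3:**
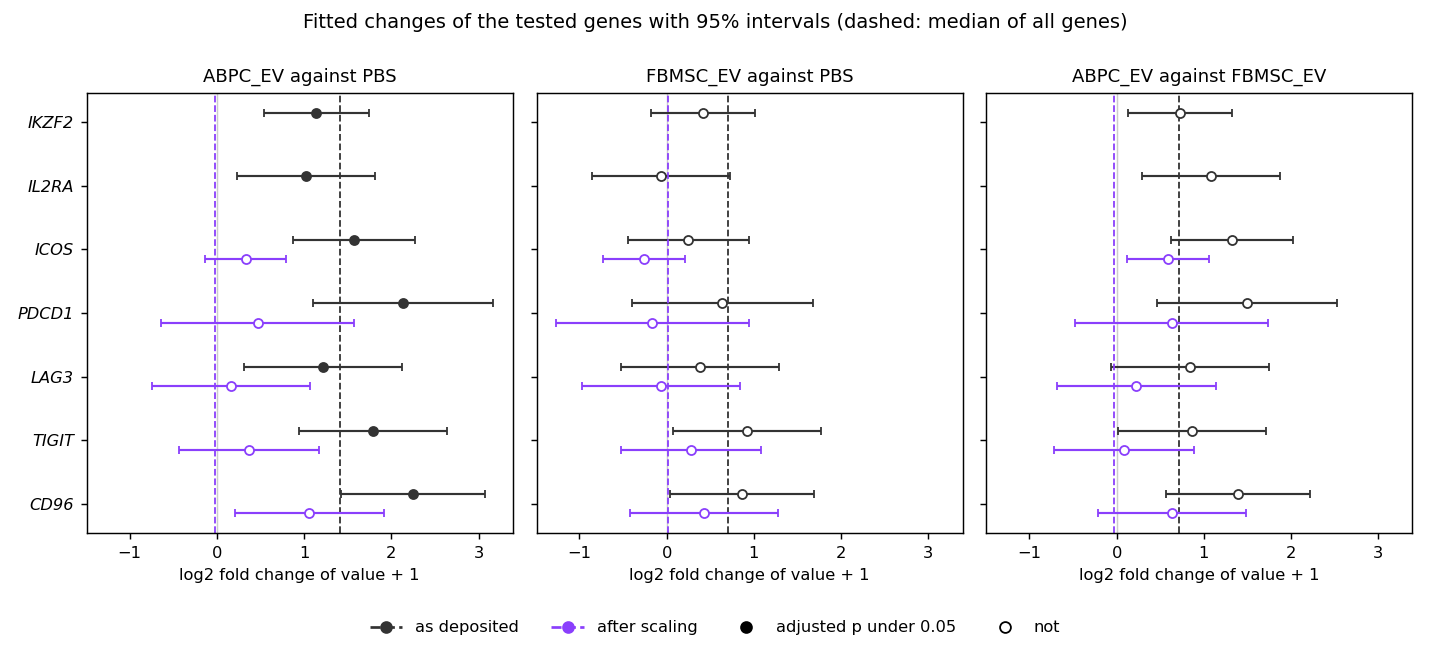
Log2 fold changes of value + 1 (horizontal axis) with 95% intervals for the tested genes in the 3 comparisons, dark as deposited and purple after scaling, filled where the adjusted p was under 0.05; dashed lines are the medians of all tested genes. Filled points appear only for ABPC_EV against PBS as deposited, where all 7 genes passed. Scaled changes lie closer to 0, except that of ICOS under FBMSC_EV against PBS (0.25 as deposited, -0.26 scaled).

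The third comparison set ABPC_EV against FBMSC_EV. As deposited, 0 of 7 genes were called, against 0.585% of all genes called higher (limma). Their changes were 1.50 for PDCD1, 1.39 for CD96, 1.33 for ICOS, 1.09 for IL2RA, 0.87 for TIGIT, 0.84 for LAG3 and 0.73 for IKZF2, with limma adjusted p from 0.0655 to 0.121; all but LAG3 were among the 5120 genes at an unadjusted p under 0.05. The median was 1.09 and that of all genes 0.71. ICOS and IKZF2 were the 2 of 7 with every ABPC_EV library above every FBMSC_EV library, against 50.5% of all genes. For IKZF2 this was fixed in advance, since only its ABPC_EV libraries reached the minimum level. The adjusted p lay near the threshold, and single libraries moved the count: it was 6 of 6 without ABPC_EV replicate 1, where 45.6% of all genes were called higher, and 3 of 5 without ABPC_EV replicate 2, against 4% of all genes. It was 2 (CD96 and ICOS) without PBS replicate 2, PBS replicate 3 or FBMSC_EV replicate 2, where 1.69%, 25.6% and 3.89% of all genes were called higher. Without ABPC_EV replicate 3 it was 0 of 5, against 0.485% of all genes called higher. In that fit the change was 0.07 for LAG3, 0.67 for PDCD1 and 0.42 for TIGIT. TIGIT had 0.47 without FBMSC_EV replicate 1.

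After scaling, 0 of 5 were called, as was 0% of all genes (limma; 533 genes at an unadjusted p under 0.05, ICOS among them, and 0 called by limma-voom). ICOS had 0.59 (95% interval 0.12 to 1.06, adjusted p = 0.885), from 1.12 ± 0.202 to 2.22 ± 0.665 (SD, n = 3 each), and was the 1 of 5 with no overlap, against 3.66% of all genes. CD96 had 0.64, PDCD1 0.63, LAG3 0.23 and TIGIT 0.09; PDCD1 turned to -0.01 without ABPC_EV replicate 3, where CD96 had 0.33. HAVCR2, under the minimum, had -0.27, with FBMSC_EV replicate 3 the highest of all 9 libraries.

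Markers of most blood cell types rose with these values as deposited, as did 90.9% of all genes under ABPC_EV against PBS. In that comparison all 11 T cell markers in the table rose (median 2.36), as did the 8 tested NK cell (2.79), 7 monocyte (2.11), 6 B cell (1.37) and 4 tested platelet (1.84) markers and 4 of 6 neutrophil markers (1.48). After scaling none passed, and the medians were 0.48 for T cells, 0.82 for NK cells, 0.17 for monocytes, 0.03 for platelets, -0.53 for neutrophils and -0.58 for B cells. Against FBMSC_EV, CD4 alone of the T cell markers rose as deposited (1.72, limma adjusted p = 0.0488). That call was lost without PBS replicate 1, FBMSC_EV replicates 1 or 3 or ABPC_EV replicate 3, and 10 of the 11 were called without ABPC_EV replicate 1, where 45.6% of all genes were. Of the 11 erythroid markers 1 fell under ABPC_EV against PBS, beside 6 of all 10596 genes called lower. The erythroid median was -0.25 as deposited and -2.29 after scaling, where none passed. The scaled sum of the T cell markers was 114, 161 and 104 under PBS, 85.6, 210 and 146 under FBMSC_EV and 137, 162 and 330 under ABPC_EV. ABPC_EV replicate 3, the highest library for 6 of the 10 genes, was also the highest here, and FBMSC_EV replicate 2, where CD96 and TIGIT were highest in their group, came second. The scaled NK cell sum ran from 129 to 374 under PBS, from 267 to 645 under FBMSC_EV and from 237 to 434 under ABPC_EV, and no T or NK cell marker was at 0 in all libraries of a group. The part of these markers in the results above was not tested, beyond the ratios that follow.

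Each gene was therefore also set against CD3, the signalling complex of all T cells, within the same library. Per 100 of CD3E, CD96 was 3.04, 3.02 and 1.70 under PBS, 2.63, 8.57 and 3.28 under FBMSC_EV and 11.9, 3.90 and 6.44 under ABPC_EV. CD96 was thus higher relative to CD3E in every ABPC_EV library than in any PBS library, with FBMSC_EV replicate 2 within the ABPC_EV range. HAVCR2 was higher in every FBMSC_EV library (0.930 to 2.15) than in any PBS library (0.289 to 0.862). The nearest of these, FBMSC_EV replicate 1 and PBS replicate 2, rested on 11 and 12 reads. Set against CD3D, CD3E and CD3G together, or against CD4, HAVCR2 overlapped between these groups. The share of all genes without overlap was not counted per 100 of CD3E. FOXP3 per 100 of CD3E was 2.20, 0.924 and 1.14 under PBS, 2.03, 0.359 and 0.772 under FBMSC_EV and 1.33, 1.52 and 0.376 under ABPC_EV. PDCD1 was 13.1, 16.9 and 12.2 under PBS, 13.9, 8.74 and 15.2 under FBMSC_EV and 14.1, 10.4 and 24.0 under ABPC_EV. FOXP3 and PDCD1 overlapped between all groups on this measure, and PDCD1 was again highest in ABPC_EV replicate 3. IL2RA ran from 0.264 to 8.06 under PBS, the widest range of the 10 within that group.

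**Figure D4:**
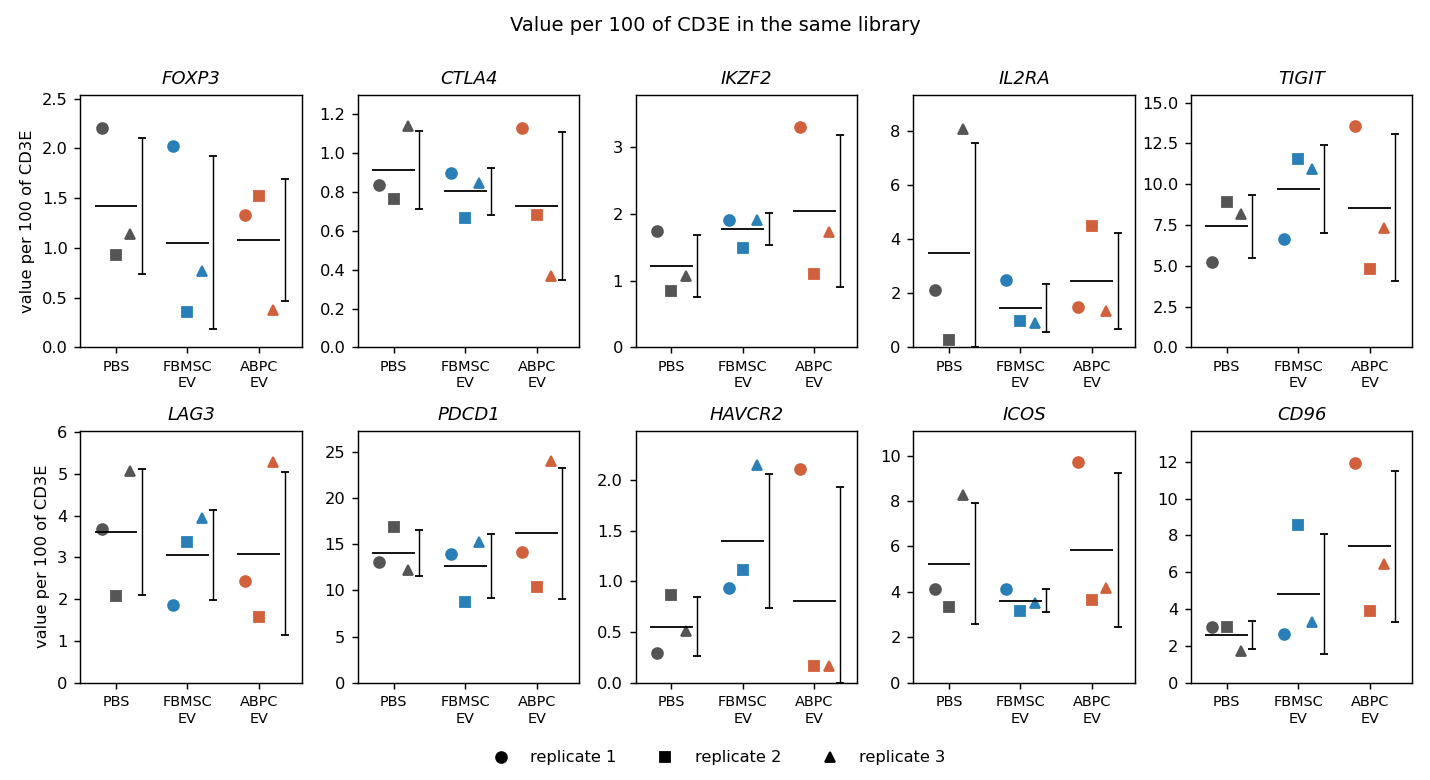
Value of each gene per 100 of CD3E in the same library (vertical axis, linear, a separate range for each gene) for the 3 groups, with single libraries as points, means as lines and 1 SD as bars cut at 0. Only in the CD96 panel do all ABPC_EV points (3.90 to 11.9) lie above all PBS points (1.70 to 3.04). In the HAVCR2 panel all FBMSC_EV points (0.930 to 2.15) lie above all PBS points (0.289 to 0.862). Set against CD3D, CD3E and CD3G together, or against CD4, HAVCR2 overlapped between these groups.

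The main measure was log2(value + 1) of a gene minus the mean of the same for CD3D, CD3E and CD3G. It was set with earlier results of these data known, and compared with exact two-sided permutation tests, 30 in all. With 3 against 3 none can give a p below 0.1, and none passes after adjustment. Under ABPC_EV against PBS this ratio was lower without overlap for HAVCR2 (-1.95), CTLA4 (-1.82), FOXP3 (-1.67), IKZF2 (-1.12) and LAG3 (-1.05), each with exact p = 0.1, and -0.01 for CD96 (exact p = 1). These 5 of 10 are near the 45.6% of the 13350 genes above 0 in every library that were lower without overlap on this measure. For genes listed below 1, the added 1 exceeds the value itself and holds the ratio down as CD3 rises. Without it, an alternative chosen after the data were seen, the differences were -0.42 for HAVCR2, -0.48 for CTLA4, -0.56 for FOXP3, 0.64 for IKZF2 and -0.35 for LAG3, all with overlapping groups, against 7.81% of those genes lower without overlap. CD96 then differed by 1.39 (exact p = 0.1), and was the only 1 of the 10 without overlap, against 0.644% of those genes higher without overlap. The measure without the added 1 was 0.08 for TIGIT, 0.10 for PDCD1, 0.09 for ICOS and 0.31 for IL2RA. Under FBMSC_EV against PBS the ratio with the added 1 was lower without overlap for CTLA4, LAG3 and TIGIT (-1.02, -0.77 and -0.23), against 13.4% of those genes. When nothing was added, 0 of 10 were without overlap, against 3.42% lower and 0.891% higher. ABPC_EV against FBMSC_EV gave 0 of 10 by either measure, against 0.906% of those genes lower with the added 1, and 1.21% lower and 0.494% higher without it.

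Across the 9 scaled libraries the genes fell into different patterns, given here as descriptions, since the libraries share groups and a scaling. Pearson's r with the T cell marker sum was 0.90 for CD96, 0.88 for TIGIT, 0.80 for PDCD1, 0.77 for IKZF2 and 0.75 for LAG3. It was 0.56 for ICOS, 0.31 for CTLA4, 0.05 for HAVCR2, -0.05 for IL2RA and -0.37 for FOXP3. Other marker sums went with some of the genes as closely: r with the NK cell sum was 0.79 for CD96 and 0.74 for TIGIT, with the platelet sum -0.89 for LAG3 and -0.70 for TIGIT, with the monocyte sum -0.76 for CTLA4 and -0.74 for ICOS, and with the neutrophil sum -0.74 for ICOS and -0.70 for LAG3. Among the 10, IKZF2 and CD96 (r = 0.81), LAG3 and PDCD1 (0.81) and CD96 and TIGIT (0.77) went together most, and FOXP3 and TIGIT went in opposite directions (-0.70). FOXP3 and IL2RA, both used to define regulatory T cells, had r = 0.38. ABPC_EV replicate 3 is high for LAG3, PDCD1, CD96, TIGIT and IKZF2 alike and so weighs on these values.

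By the same measure, the tested genes most like CD96 were PITPNC1 (r = 0.98), a lipid transfer protein gene, and PRKCQ (0.97), which encodes the kinase PKC-theta of T cell receptor signalling. ICOS was most like SERPINB9 (0.98), an inhibitor of granzyme B, and MFHAS1 (0.94). TIGIT was most like TTC38 (0.96) and TPD52 (0.94), PDCD1 like CUL7 (0.95) and the death receptor TNFRSF25 (0.93), and LAG3 like MYRF (0.93) and PTMS (0.92).

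Other genes of the pathway were taken from 6 lists, and each count is again to be read against the 90.9% of all genes called higher under ABPC_EV against PBS. Of the ligands of these receptors and their kin, 15 of 16 were in the table, 9 were tested and 7 rose. Their median of 1.06 lay under the all-gene median of 1.41, as did all 9 values, and the scaled median was -0.24. ICOSLG, the ligand of ICOS, rose by 1.29 (limma adjusted p = 0.00124), from 0.987 ± 0.497 to 3.96 ± 1.60 (SD, n = 3 each), and its scaled change was 0.01. The ligand count was 4 of 9 without PBS replicate 1 and 4 of 8 without ABPC_EV replicate 2.

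Of the IL-2 receptor signalling genes, 11 of 11 tested rose (of 12 in the list), with a median of 2.05. JAK3, the kinase of the shared gamma chain, rose by 2.24 (scaled 0.83). Of 26 further regulatory T cell genes, 17 of 17 tested rose with a median of 1.73, among them PRDM1, which encodes BLIMP-1, by 2.01 (scaled 0.56). All 12 tested of 15 further coinhibitory and costimulatory receptors rose (median 1.53), with SLAMF6, a receptor of the SLAM family, at 2.42 (scaled 0.61). The 12 tested of 13 exhaustion-related transcription factors rose as well (median 1.70), EOMES by 2.07 (scaled 0.65), and so did the 11 tested of 12 genes of signalling from receptor tails (median 1.88), the kinase FYN by 2.28 (scaled 0.58). The smallest p in each of these 5 lists was an adjusted 0.000417 by limma. After scaling 0 genes of the 6 lists passed in any comparison.

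Neither of the other comparisons gave a call in these 6 lists by limma. Within the ligand list, FBMSC_EV against PBS had the smallest p upwards for CD274, the ligand PD-L1 (1.04, limma adjusted p = 0.0901, scaled 0.47). CD274 went from 0.683 ± 0.126 to 2.47 ± 0.306 (SD, n = 3 each). Downwards in that list, the adhesion receptor CEACAM1 had the smallest p (-1.28, limma adjusted p = 0.103). SOCS3 (1.45), CD244 (1.28), EOMES (1.23), PIK3R1 (1.21) and PRDM1 (1.13) led the other lists. For ABPC_EV against FBMSC_EV the leading genes were TCF7, a factor of naive and stem-like T cells (1.75, limma adjusted p = 0.0602, scaled 0.83), BCL2 (1.40), FYN (1.14), CD28 (1.12), SATB1 (1.11) and ICOSLG (1.01), and NECTIN1 had -0.31. These counts of 0 rested on single libraries. Without PBS replicate 3, 3 to 8 genes of each list rose under FBMSC_EV against PBS, among them 8 of the 17 further regulatory T cell genes, beside 43.3% of all genes in that fit. Without ABPC_EV replicate 1, 14 of those 17 rose in ABPC_EV against FBMSC_EV, beside 45.6% of all genes.

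Some of the 10 genes have neighbours whose reads could be counted with theirs, as the labels do not name a stranded kit. In the RefSeq gene table of the assembly T2T-MMU8v2.0, used only for neighbours because the files name Mmul_10, 3 of the 10 overlap another gene: FOXP3 overlaps CCDC22, CD96 overlaps ZBED2, and IL2RA overlaps 3 noncoding genes. CCDC22, a protein of endosomal sorting, ran from 3.09 to 5.40 after scaling, above FOXP3 in every library. CTLA4 lies between CD28 and ICOS, and LAG3 between PTMS and CD4.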

How the data were processed

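Per the labels' protocols, NEBNext Ultra RNA libraries were sequenced as paired ends; the build was Mmul_10, per the submitters' processing notes. For the aligner and counter, the sources used here give no name. The authors deposited log2 values of 24371 genes in 9 columns, all mapped to samples; 0.5 had been added to a per-million value, which was recovered by undoing both steps. Whole reads were recovered with 1 divisor per gene (tolerance 0.001): 99.97% of 21551 genes came out whole, though a divisor cannot be told from a multiple. They gave depth, the limma-voom alternative and intervals that cover counting error only.

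Tests used limma 3.58.1 in R 4.3.3 with a trend, group as the only term and no pairing. The fit was tested on simulated data. Genes named from a pathway list have the smallest p in each direction; the 2 most alike genes are those with the highest Pearson's r. The 10 genes, the lists, the rules and the tests were chosen with earlier results of these data known. No sequences or coordinates are given.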

Additional observations from a re-analysis of the deposited data

How the results depend on the processing

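Depth limits CTLA4, IL2RA, HAVCR2 and FOXP3, which rest on few reads. The 7 genes called under ABPC_EV against PBS as deposited were 4 to 7 with 1 library left out. In those fits 82.5% to 92% of all genes were called higher, and fewer of the 10 were tested in some of them. Under FBMSC_EV against PBS, 1 (TIGIT, limma adjusted p = 0.0429) of 4 was called when only those groups were fitted, where 31.5% of all genes were called higher. ABPC_EV against FBMSC_EV gave 0 to 6 with 1 library left out, the 6 being without ABPC_EV replicate 1, where 45.6% of all genes were called higher, and 5 with the replicate block (PDCD1, CD96, ICOS, IL2RA and IKZF2), which called 3389 genes higher and 17 lower in the whole table against 62 and 6 without it; with no minimum level, the block left 6 called under ABPC_EV against PBS in place of 7 (FOXP3, adjusted p = 0.0676), and the other counts of called genes among the 10 were equal with and without it. Equal replicate numbers name different animals: deviations correlated above 0.1 in 4 of 9 pairs (-0.25 to 0.29), and 3 of 9 libraries correlated best with their own number. After scaling, 0 were called in every alternative run.

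The count of genes without overlap relative to CD3 under ABPC_EV against PBS was 5, 3 with 0.5 added (all lower, beside 45.6% and 32.9% of the 13350 genes above 0 in every library) and 1 with nothing added (CD96, higher, beside 0.644%). Under FBMSC_EV against PBS it was 3, 0 with nothing added and 3 to 9 with 1 library left out. Under ABPC_EV against FBMSC_EV this count was 0 to 2. The share of all genes without overlap was not counted with 1 library left out, and smaller groups separate more easily. The ranges therefore cannot show whether these genes differed from the rest of the table.

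Some changes near 0 turned sign. With 0.1 added, IL2RA was 0.28 as deposited under FBMSC_EV against PBS. Where removing the erythroid genes and rescaling replaced median-ratio scaling, ABPC_EV against PBS gave 0.46 for FOXP3 and 0.46 for CTLA4. The all-gene median of that fit, with no minimum level, was 0.45. FBMSC_EV against PBS gave 0.14 for CTLA4, beside an all-gene median of 0.22 with no minimum level. It gave 0.19 for LAG3 and 0.21 for PDCD1, beside an all-gene median of 0.38 with the minimum level. Upper-quartile scaling gave 0.0027 for FOXP3 and 0.0080 for CTLA4 under ABPC_EV against PBS, and limma-voom gave -0.14 for HAVCR2.

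With 1 library left out, scaled ABPC_EV against PBS ran from -0.16 to 0.081 for FOXP3, -0.038 to 0.0079 for CTLA4, -0.18 to 0.59 for IL2RA, -0.34 to 0.47 for LAG3, -0.17 to 0.93 for PDCD1 and -0.10 to 0.12 for HAVCR2. FBMSC_EV against PBS ran from -0.71 to 0.073 for IL2RA, -0.20 to 0.18 for LAG3 and -0.37 to 0.093 for PDCD1. ABPC_EV against FBMSC_EV ran from -0.0042 to 0.22 for FOXP3, -0.0075 to 0.053 for CTLA4, -0.27 to 0.31 for TIGIT, -0.28 to 0.53 for LAG3 and -0.0089 to 1.09 for PDCD1, and as deposited from -0.25 to 0.011 for HAVCR2. Beyond leaving out libraries or what was added, the cause was not tested.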

Other observations

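LAG3 and PTMS, which encodes parathymosin, lie next to each other in the RefSeq gene table, and PTMS was the second most alike gene to LAG3. Scaled PTMS was 6.50, 7.81 and 7.17 under PBS, 5.69, 13.0 and 13.0 under FBMSC_EV and 4.12, 7.95 and 33.8 under ABPC_EV. Both genes were highest in ABPC_EV replicate 3, and both were higher in FBMSC_EV replicates 2 and 3 than in FBMSC_EV replicate 1. PTMS had 62 to 1409 recovered reads per library and LAG3 19 to 334. Scaled CD4, the neighbour on the other side, was 7.04, 7.42 and 6.68 under PBS, 4.60, 7.27 and 4.46 under FBMSC_EV and 7.96, 10.9 and 12.2 under ABPC_EV, with ABPC_EV replicate 3 again the highest library. Whether reads of LAG3 and PTMS were counted apart was not tested.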
